A study of Sus scrofa with 12 samples.

Results

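The genes described here encode actins, the proteins that assemble, cut, cross-link and pull on actin filaments, and markers of smooth muscle. They were the 61 gene rows, of 30461 in the deposited table, whose symbols matched a fixed pattern of actin, actin-related, profilin, cofilin, thymosin beta, myosin, tropomyosin, calponin, transgelin, filamin and related names. The rule used no measured value, but it was drawn up with earlier results of these data known. The 61 rows carried 59 symbols, since ACTR8 and CNN3 each stood on 2 rows, and 49 rows had enough reads to be tested. The samples were porcine (Sus scrofa) oviduct epithelial cells in 3 groups of 4: single cells freshly scraped from the oviduct, spheroids that had formed in DMEM/F12, a basal culture medium, and spheroids that had formed in a medium named only as Incubation Medium. Titles of the DMEM/F12 libraries carry FBS and those of the incubation medium libraries carry Diff, and the composition of neither medium is given in the sources used here, nor are the pigs' age, the number of pigs or the time in culture. Poly(A)+ RNA was read at the 3′ end of transcripts, and each gene's level is given in CPM, its counts scaled to a common total of gene counts per library. The labels do not say whether the 4 samples of a group came from separate animals or cultures, so p-values measure the spread between these samples.

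Actin exists as monomers and as filaments that grow at one end. Thymosin betas hold monomers in reserve, profilins feed them to growing ends, cofilins cut old filaments, and the Arp2/3 complex starts branches on existing ones; alpha-actinin and filamin cross-link filaments, and non-muscle myosin, tropomyosin, calponin and caldesmon set and regulate their contraction. In the oviduct wall, smooth muscle cells beneath the epithelium carry their own actins, calponin CNN1, desmin and transgelin (TAGLN), while epithelial cells use the cytoplasmic forms. Free actin monomers also hold back MRTF, a partner of the transcription factor SRF, and CCN1 and CCN2 are known target genes of SRF and of YAP, a factor that answers to cell tension.

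Libraries held between 5045218 and 6026901 counts in fresh cells, between 7583584 and 8068213 in DMEM/F12 spheroids and between 7585813 and 8603809 in incubation medium spheroids. These totals were taken over all rows of the deposited table, including its spike-in rows. The 61 rows together took 2.4% ± 0.264 of a fresh library's counts (mean ± SD, n = 4 here and below), 4.37% ± 0.179 of a DMEM/F12 spheroid library's and 3.3% ± 0.136 of an incubation medium spheroid library's, differences that were not tested. No library of one group reached another group's range: fresh cells ran from 2.11 to 2.66%, DMEM/F12 spheroids from 4.13 to 4.57% and incubation medium spheroids from 3.18 to 3.46%. A few genes held most of these shares, among them CCN1 and CCN2, which were lower in spheroids. Without ACTG1, TMSB4X, TMSB10, CCN1 and CCN2 the shares were 0.565 to 0.591%, 1.79 to 1.93% and 1.35 to 1.44% in the same order of groups. In bulk RNA a change in a cell type's share and a change in RNA per cell cannot be told apart, and this holds for every level below. A gene was called higher or lower where edgeR's quasi-likelihood test gave an adjusted p under 0.05 (Benjamini-Hochberg over 14070 genes).

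Against fresh cells, 32 of the 49 tested rows were called higher in DMEM/F12 spheroids, where 35.1% of all tested genes were, and 5 were called lower, where 35.7% were. Incubation medium spheroids had 30 rows called higher (35.8% of all tested genes) and 7 called lower (35.8%). The median log2 fold change over the 49 rows was 1.29 for DMEM/F12 and 0.78 for incubation medium spheroids, against medians of -0.01 over all tested genes in each comparison. At least 4-fold higher were 12 rows in DMEM/F12 spheroids, with a background of 5.22%, and 6 rows in incubation medium spheroids, with a background of 4.82%. Between the media, incubation medium spheroids had 3 rows higher (12.7% of all tested genes) and 16 lower (12.3%) than DMEM/F12 spheroids, with a median of -0.25. Scaling by library totals in place of TMM made that split 2 higher and 24 lower, with 1239 higher and 2471 lower over all tested genes in place of 1791 and 1731, and moved the median of all genes to -0.10. Of the 49 tested rows, the fresh and DMEM/F12 groups did not overlap in 38, against 65.4% of all tested genes, the fresh and incubation medium groups in 33, against 64.9%, and the 2 spheroid groups in 21, against 26.9%. The fresh cell libraries serve as the control in both comparisons with spheroids, so the comparisons are not independent and are given side by side.

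**Figure D1:**
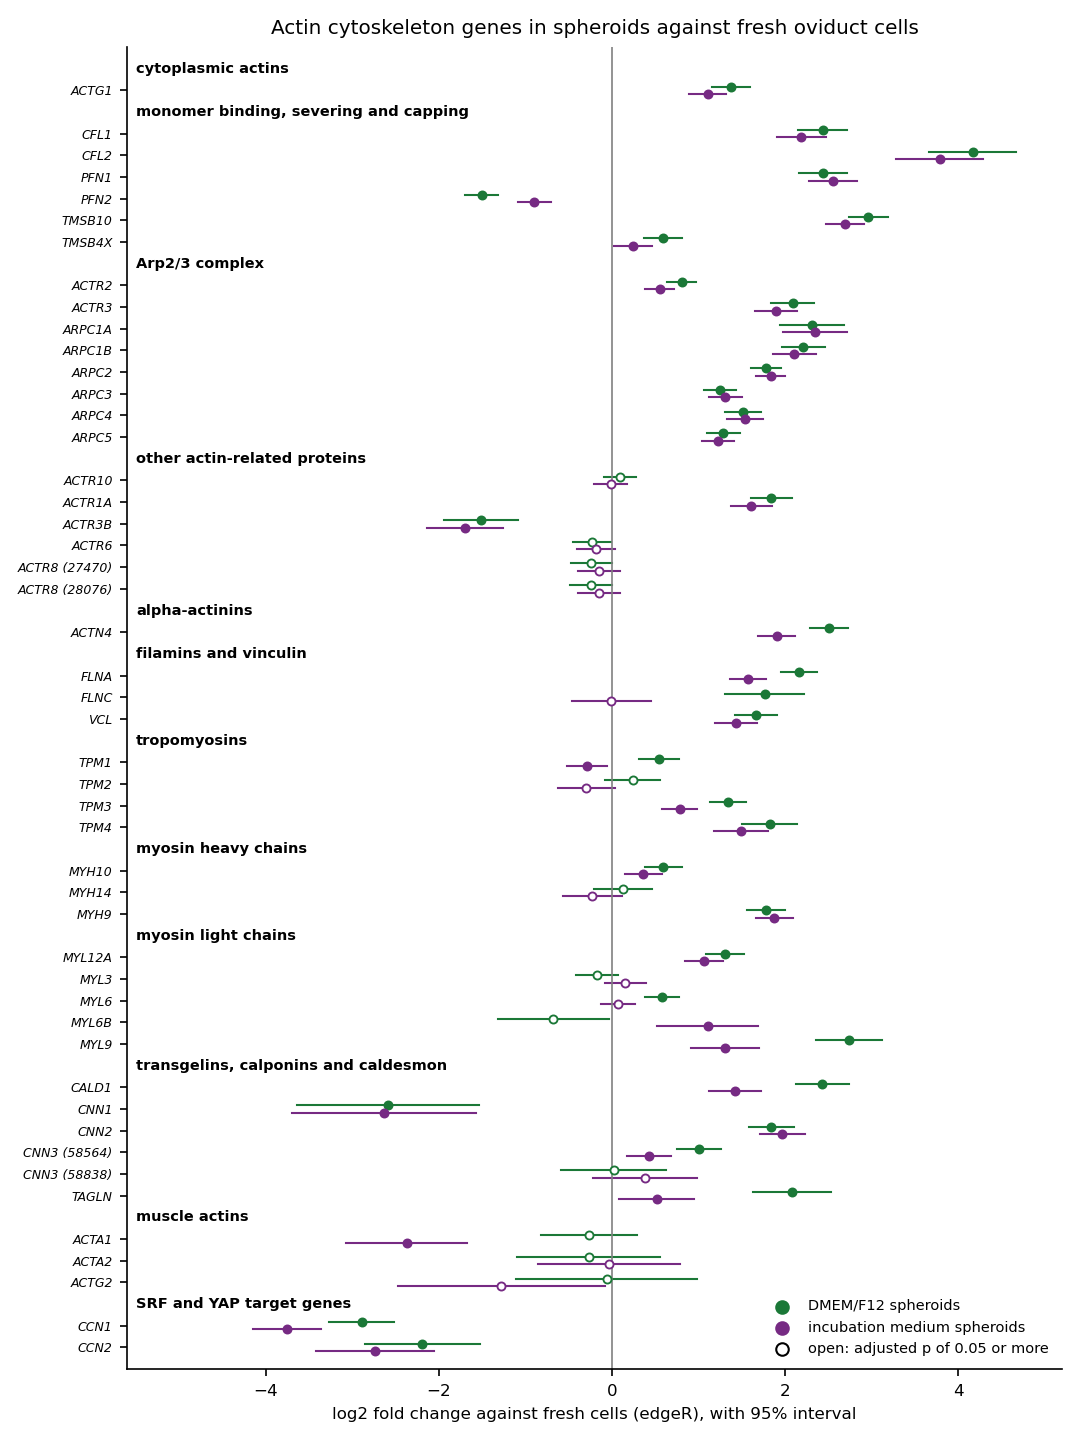
Log2 fold change against fresh cells (horizontal axis, edgeR, bars are 95% intervals) of 48 of the 49 tested rows, grouped by role, in DMEM/F12 spheroids (green) and incubation medium spheroids (purple), with open points where the adjusted p was 0.05 or more. The 8 rows grouped as Arp2/3 lie to the right of 0 in each medium. CCN1, CCN2 and ACTR3B, an ARP3 form grouped apart, lie to the left. TAGLN, CALD1, MYL9 and FLNC lie farther right in DMEM/F12.

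ACTG1, the gene of cytoplasmic gamma actin, rose in spheroids. ACTG1 measured 4208, 4004, 3321 and 3240 CPM in fresh replicates 1 to 4, 9630, 9008, 10150 and 9638 CPM in DMEM/F12 spheroids and 8448, 7085, 7426 and 8813 CPM in incubation medium spheroids. The 3 groups did not overlap, and DMEM/F12 spheroids were the highest. ACTG1's log2 fold change reached 1.38 (SE 0.103, adjusted p = 3.17e-08) in DMEM/F12 spheroids and log2 1.10 (SE 0.102, adjusted p = 2.69e-07) in incubation medium spheroids. Between the media the log2 difference of -0.27 (adjusted p = 0.0614) was not called. ACTG1 was called between the media without incubation medium replicate 4, with library totals in place of TMM, by DESeq2 or with only the 8 libraries compared in the fit (log2 -0.37 to -0.27, adjusted p 0.00428 to 0.0408). ACTB, the other cytoplasmic actin, is on no row under that symbol and is not analysed here. ACTG1 counts were not whole numbers in most libraries, and reads shared with near-identical actins may be divided between rows.

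Most genes that bind monomers or cut filaments rose: of 6 tested, 5 were called higher and PFN2 lower in DMEM/F12 spheroids, and 5 higher and PFN2 lower in incubation medium spheroids. CFL2, a cofilin best known from muscle, rose most of all 49 rows. CFL2 measured 13.1, 15.6, 14.6 and 8.43 CPM in fresh replicates 1 to 4, 196, 218, 336 and 184 CPM in DMEM/F12 spheroids and 163, 184, 224 and 145 CPM in incubation medium spheroids. Every spheroid library lay above every fresh library, 18-fold on average in DMEM/F12 (log2 4.17, SE 0.235, adjusted p = 2.63e-09) and 13.8-fold in incubation medium (log2 3.79, SE 0.233, adjusted p = 5.57e-09). CFL1, the cofilin found in most cells, rose with a log2 fold change of 2.44 (adjusted p = 1.87e-09) in DMEM/F12 and log2 2.19 (adjusted p = 4.55e-09) in incubation medium. CFL2's counts were whole numbers in all libraries. The media differed in CFL2 by a log2 value of -0.38 (adjusted p = 0.168), which was not called. CFL2 was called between the media with the replicate block (log2 -0.36, adjusted p = 0.00878). CFL1 was not called between the media (log2 -0.25, adjusted p = 0.169). CFL1 was called between the media without incubation medium replicate 4 or with library totals in place of TMM (log2 -0.37 to -0.34, adjusted p 0.0275 to 0.0484).

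The thymosins, which bind monomers, moved unequally. TMSB10 measured 661, 620.4, 628 and 615 CPM in fresh replicates 1 to 4, 4437, 4373, 5845 and 5033 CPM in DMEM/F12 spheroids and 3633, 4076, 4358 and 4287 CPM in incubation medium spheroids. Spheroids were separated from fresh cells by a wide margin, 7.8-fold in DMEM/F12 (log2 2.96, SE 0.103, adjusted p = 3.98e-11) and 6.48-fold in incubation medium (log2 2.70, SE 0.102, adjusted p = 7.04e-11). TMSB4X measured 4959, 5753, 6122 and 5477 CPM in fresh replicates 1 to 4, 7996, 7292, 9239 and 9018 CPM in DMEM/F12 spheroids and 6255, 6341, 6052 and 7779 CPM in incubation medium spheroids. TMSB4X rose in DMEM/F12, with a log2 fold change of 0.59 (SE 0.104, adjusted p = 0.000153), and the difference of log2 0.24 (adjusted p = 0.0475) in incubation medium was close to the threshold, with the lowest library of those spheroids below the highest fresh library. The call of TMSB4X in incubation medium against fresh cells was lost without fresh replicate 1, 2 or 4 or incubation medium replicate 4 or with a mean count of at least 10 required (log2 0.17 to 0.26, adjusted p 0.0603 to 0.131). Between the media TMSB4X was called lower in incubation medium (log2 -0.34, adjusted p = 0.0258) and TMSB10 was not called (log2 -0.27, adjusted p = 0.0558). TMSB10 was called between the media without DMEM/F12 replicate 1 or 2, with library totals in place of TMM, by DESeq2 or with the replicate block (log2 -0.36 to -0.26, adjusted p 0.00558 to 0.0383). The call of TMSB4X between the media was lost without DMEM/F12 replicate 3 or 4 or incubation medium replicate 1, 2 or 3 (log2 -0.32 to -0.29, adjusted p 0.0665 to 0.0778).

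Profilins moved apart. PFN1, the profilin of most cells, went from 279 ± 54.2 CPM in fresh cells to 1510 ± 145 CPM in DMEM/F12 spheroids and 1643 ± 121 CPM in incubation medium spheroids, log2 fold changes of 2.44 (adjusted p = 1.42e-09) and log2 2.56 (adjusted p = 9.25e-10). PFN2, best known from neurons, fell from 221 ± 16.6 CPM to 77.8 ± 7.31 CPM and 119 ± 7.91 CPM, log2 fold changes of -1.50 (adjusted p = 4.04e-09) and log2 -0.90 (adjusted p = 4.82e-07). It was also one of 3 rows called higher in incubation medium than in DMEM/F12 (log2 0.61, SE 0.0882, adjusted p = 0.000228). The PFN2 gene overlaps RNF13 in the RefSeq annotation of the Sscrofa11.1 build, and whether counting used strand is not given in the sources used here, so reads of the other gene may be included. The same limit holds for CFL1, which overlaps SNX32, ACTN4, which overlaps CAPN12, and ACTR8, which overlaps IL17RB. It also holds for FLNC, VCL, MYH14, MYL6B, MYL9, CALD1 and, again, ACTN4, which overlap genes with only a placeholder (LOC) name.

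The 8 rows grouped here as the Arp2/3 complex, which starts new filament branches, all rose in DMEM/F12 and in incubation medium spheroids. Their medians were 1.65 and 1.69 on the log2 scale. ACTR3B, a second form of the ARP3 subunit, was not among these 8 and was called lower in each medium, as given below. ARPC1A measured 121, 123, 115 and 121 CPM in fresh replicates 1 to 4, 497, 586, 839 and 461 CPM in DMEM/F12 spheroids and 713, 526, 680.4 and 514 CPM in incubation medium spheroids. ARPC2 measured 189.9, 175, 155 and 168 CPM in fresh replicates 1 to 4, 589, 563, 640.4 and 566 CPM in DMEM/F12 spheroids and 602, 612, 606 and 629.9 CPM in incubation medium spheroids. For each of the 8 rows the lowest spheroid library was above the highest fresh library, in each medium. ARPC1A, a subunit that exists in 2 forms, rose most, with a log2 fold change of 2.31 (SE 0.173, adjusted p = 3.38e-08) in DMEM/F12 and log2 2.34 (SE 0.173, adjusted p = 3.05e-08) in incubation medium. ACTR2, the ARP2 subunit, moved least, by log2 0.81 (SE 0.079, adjusted p = 5e-07) and log2 0.55 (SE 0.0789, adjusted p = 2.08e-05). ACTR3, the ARP3 subunit, rose by 2.09 and 1.90, ARPC1B by 2.21 and 2.11, ARPC2 by 1.78 and 1.83, and ARPC4 by 1.52 and 1.54, on the log2 scale in DMEM/F12 and incubation medium. The rows ARPC3 and ARPC5, whose counts were whole in every library, rose by 1.25 and 1.29 in DMEM/F12 and by 1.31 and 1.23 in incubation medium, again log2. In the same RefSeq annotation ARPC1B overlaps PDAP1 and ARPC4 overlaps TADA3. Between the media only ACTR2 was called, lower in incubation medium (log2 -0.25, adjusted p = 0.0275). The call of ACTR2 between the media was lost without DMEM/F12 replicate 3 or 4 or incubation medium replicate 1, 3 or 4 or with no filter on low counts (log2 -0.27 to -0.21, adjusted p 0.0515 to 0.0822). The intervals of the other 7 differences were narrow for most rows, such as -0.11 to 0.22 for ARPC2, and wider for ARPC1A (-0.32 to 0.38).

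**Figure D2:**
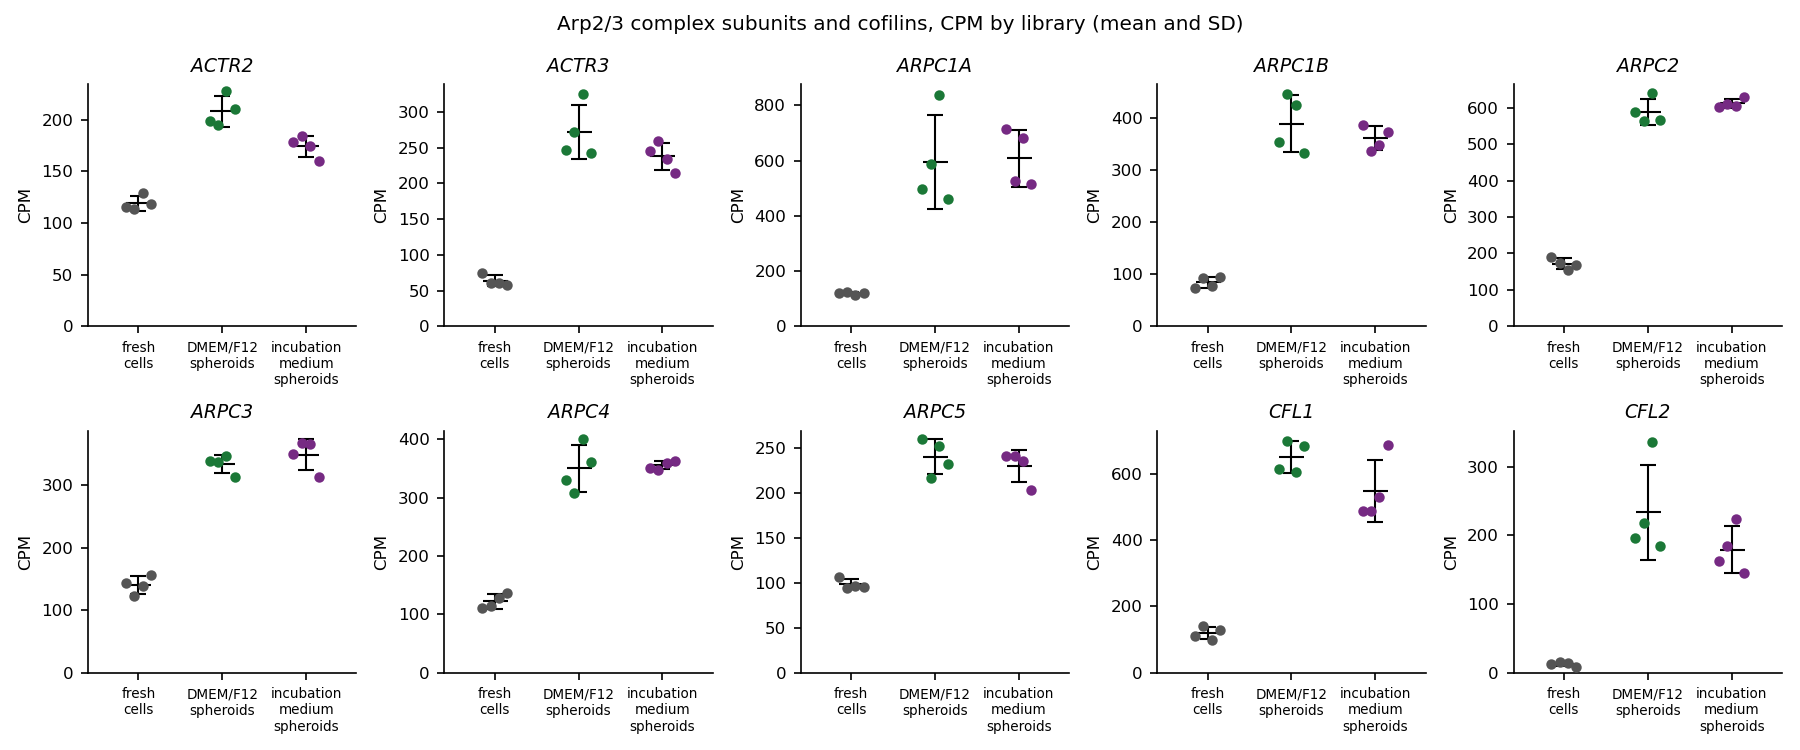
CPM in each library (vertical axes, starting at 0) of the 8 Arp2/3 rows and the cofilins CFL1 and CFL2 in fresh cells (grey), DMEM/F12 spheroids (green) and incubation medium spheroids (purple), with bars for the mean and SD of 4 libraries. In every panel the 4 fresh libraries lie below all 8 spheroid libraries, while the spheroid groups overlap in every panel but that of ACTR2.

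Actin-related proteins outside the rows grouped as Arp2/3 did not share one direction. ACTR1A measured 22.1, 24, 23.9 and 19.8 CPM in fresh replicates 1 to 4, 72, 80.3, 95.8 and 74.1 CPM in DMEM/F12 spheroids and 67.2, 65.1, 77.7 and 64.8 CPM in incubation medium spheroids. ACTR1A, the filament-forming subunit of dynactin, rose in spheroids, by log2 1.84 (SE 0.111, adjusted p = 4.76e-09) in DMEM/F12 and log2 1.61 (SE 0.111, adjusted p = 1.61e-08) in incubation medium, with no overlap with fresh cells. ACTR3B, a second form of ARP3, fell from 23.2 ± 6.97 CPM to 8.11 ± 1.34 and 7.14 ± 1.14 CPM, log2 fold changes of -1.51 (adjusted p = 1.05e-05) and log2 -1.70 (adjusted p = 3.74e-06). ACTR10 measured 115, 101, 102 and 105 CPM in fresh replicates 1 to 4, 125, 106, 112 and 108 CPM in DMEM/F12 spheroids and 121, 98.5, 102 and 98.2 CPM in incubation medium spheroids. ACTR10, another dynactin subunit, was not called in any comparison, and its ranges overlapped. ACTR6 and the ACTR8 rows, which belong to chromatin remodelling complexes, were not called either, with 17.5 to 24.9 CPM for ACTR6 and 21.1 to 31.5 CPM for one ACTR8 row over the 12 libraries. The other ACTR8 row held nearly the same counts in every library, so the rows are not independent of each other. ACTR6 was called in DMEM/F12 against fresh cells without DMEM/F12 replicate 1 or with a mean count of at least 10 required (log2 -0.27 to -0.26, adjusted p 0.034 to 0.0342). The named ACTR8 row was called in DMEM/F12 against fresh cells without fresh replicate 4 or DMEM/F12 replicate 1 or with a mean count of at least 10 required (log2 -0.28 to -0.26, adjusted p 0.0447 to 0.0492). ACTR1A was called between the media with library totals in place of TMM or with the replicate block (log2 -0.32 to -0.23, adjusted p 0.0255 to 0.0304).

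The filament cross-linkers ACTN4 and FLNA rose in spheroids and were lower in incubation medium than in DMEM/F12. ACTN4 measured 243, 314, 272 and 297 CPM in fresh replicates 1 to 4, 1543, 1515, 1693 and 1632 CPM in DMEM/F12 spheroids and 1113, 989, 924 and 1182 CPM in incubation medium spheroids. ACTN4, the alpha-actinin that bundles filaments in non-muscle cells, rose 5.67-fold in DMEM/F12 (log2 2.50, SE 0.103, adjusted p = 1.47e-10) and 3.74-fold in incubation medium (log2 1.90, SE 0.1, adjusted p = 1.4e-09), and the media differed by log2 -0.60 (adjusted p = 0.000515). Its 3 groups were fully separate. FLNA measured 131, 132, 133 and 137 CPM in fresh replicates 1 to 4, 588, 526, 658 and 619 CPM in DMEM/F12 spheroids and 422, 353, 360.1 and 449.9 CPM in incubation medium spheroids. FLNA, a filamin that ties filaments into networks, rose by log2 2.16 (SE 0.0978, adjusted p = 3.39e-10) and log2 1.57 (SE 0.0963, adjusted p = 5.39e-09), and was lower in incubation medium than in DMEM/F12 (log2 -0.59, adjusted p = 0.00042). VCL, the gene of vinculin, which links actin to adhesion sites, rose from 73.9 ± 13 CPM to 234 ± 16.3 and 199.8 ± 14.1 CPM, by log2 1.66 (adjusted p = 1.61e-08) and log2 1.43 (adjusted p = 6.35e-08), with no call between the media (log2 -0.23, adjusted p = 0.144). VCL was called between the media with library totals in place of TMM (log2 -0.32, adjusted p = 0.0254).

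FLNC, the filamin known from muscle, was high in DMEM/F12 spheroids. FLNC measured 46.3, 57, 33.7 and 46.5 CPM in fresh replicates 1 to 4, 153, 140.1, 158 and 172 CPM in DMEM/F12 spheroids and 27.9, 39.9, 47.8 and 66.9 CPM in incubation medium spheroids. The DMEM/F12 libraries stood above all 8 others, and fresh cells and incubation medium spheroids overlapped. FLNC's log2 fold change reached 1.76 (SE 0.211, adjusted p = 3.76e-06) in DMEM/F12 against fresh cells and log2 -1.77 (SE 0.208, adjusted p = 4.6e-05) in incubation medium against DMEM/F12. Against fresh cells the incubation medium spheroids were not called (adjusted p = 0.967), with a 95% interval of -0.47 to 0.45 on the log2 scale.

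Among tropomyosins, which wrap filaments and gate myosin, TPM3 and TPM4 rose in spheroids. TPM3 measured 366, 341, 330.2 and 291 CPM in fresh replicates 1 to 4, 785, 889, 929.8 and 768 CPM in DMEM/F12 spheroids and 539, 629, 591 and 523 CPM in incubation medium spheroids. TPM4 measured 599, 587, 409.5 and 371 CPM in fresh replicates 1 to 4, 1634, 1650, 2076 and 1599 CPM in DMEM/F12 spheroids and 1360, 1406, 1296 and 1453 CPM in incubation medium spheroids. For each gene the spheroid libraries lay above all fresh libraries. TPM3 changed by log2 1.34 (SE 0.0961, adjusted p = 2.21e-08) in DMEM/F12 and log2 0.78 (SE 0.0951, adjusted p = 4.32e-06) in incubation medium, and TPM4 by log2 1.82 (SE 0.148, adjusted p = 7.5e-08) and log2 1.49 (SE 0.146, adjusted p = 5.07e-07). TPM1, which includes the forms known from smooth muscle, rose in DMEM/F12 from 169 ± 25.1 CPM to 247 ± 25.3 CPM (log2 0.55, adjusted p = 0.00035) and was at 138 ± 9.1 CPM in incubation medium (log2 -0.29, adjusted p = 0.0252). The call of TPM1 in incubation medium against fresh cells was lost without fresh replicate 4 or incubation medium replicate 1, 2 or 3 or with no filter on low counts (log2 -0.26 to -0.18, adjusted p 0.0688 to 0.103). TPM2, at 7.7, 9.09 and 6.28 CPM in fresh cells, DMEM/F12 and incubation medium spheroids, was called only between the media (log2 -0.53, adjusted p = 0.0152). TPM2 was called in incubation medium against fresh cells without fresh replicate 3 (log2 -0.38, adjusted p = 0.0396). TPM1 and TPM3 were also lower in incubation medium than in DMEM/F12, TPM1 with a log2 difference of -0.83 (adjusted p = 8.75e-05) and TPM3 of log2 -0.56 (adjusted p = 0.000655), and TPM4 was not called (log2 -0.34, adjusted p = 0.103). TPM4 was called between the media with library totals in place of TMM or with only the 8 libraries compared in the fit (log2 -0.43 to -0.33, adjusted p 0.0204 to 0.023).

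The non-muscle myosins supply the pulling force of epithelial actin. MYH9 measured 310.5, 345, 343 and 314 CPM in fresh replicates 1 to 4, 1140, 982, 1277 and 1103 CPM in DMEM/F12 spheroids and 1394, 1183, 1069 and 1172 CPM in incubation medium spheroids. MYH9, the heavy chain of non-muscle myosin IIA, rose by log2 1.78 (SE 0.1, adjusted p = 2.63e-09) in DMEM/F12 and log2 1.88 (SE 0.101, adjusted p = 1.61e-09) in incubation medium, and was not called between the media (adjusted p = 0.501, log2 interval -0.11 to 0.31). MYH10, the heavy chain of IIB, rose by log2 0.59 (adjusted p = 8.52e-05) and log2 0.36 (adjusted p = 0.00422). MYH14 measured 72.4, 92.9, 73.7 and 97.8 CPM in fresh replicates 1 to 4, 107, 90.0, 75.3 and 94.2 CPM in DMEM/F12 spheroids and 83.9, 52.7, 65.3 and 85.3 CPM in incubation medium spheroids. MYH14, the heavy chain of IIC, overlapped between all groups and was not called against fresh cells (log2 0.12, adjusted p = 0.493, and log2 -0.23, adjusted p = 0.208). Between the media neither MYH10 (log2 -0.23, adjusted p = 0.0984) nor MYH14 (log2 -0.35, adjusted p = 0.117) was called. MYH10 was called between the media without incubation medium replicate 1, with library totals in place of TMM or with the replicate block (log2 -0.32 to -0.23, adjusted p 0.0257 to 0.0371). MYH14 was called between the media with the replicate block (log2 -0.36, adjusted p = 0.0429).

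Of 11 myosin light chain rows, 5 were tested. MYL12A measured 787, 777, 662 and 609.9 CPM in fresh replicates 1 to 4, 1722, 1594, 2019 and 1691 CPM in DMEM/F12 spheroids and 1603, 1438, 1489 and 1388 CPM in incubation medium spheroids. MYL6 measured 446, 510.4, 481 and 528 CPM in fresh replicates 1 to 4, 727, 771, 722 and 716 CPM in DMEM/F12 spheroids and 495, 466, 483 and 619 CPM in incubation medium spheroids. MYL12A, a regulatory light chain of non-muscle myosin, rose by log2 1.31 (SE 0.101, adjusted p = 4.74e-08) in DMEM/F12 and log2 1.06 (SE 0.101, adjusted p = 3.6e-07) in incubation medium, and was not called between the media (log2 -0.25, adjusted p = 0.0855). MYL12A was called between the media with library totals in place of TMM (log2 -0.34, adjusted p = 0.00884). MYL6, an essential light chain, rose in DMEM/F12 (log2 0.58, adjusted p = 6.62e-05) and was not called in incubation medium (adjusted p = 0.516, log2 interval -0.13 to 0.27), where it was lower than in DMEM/F12 (log2 -0.51, adjusted p = 0.00126). MYL6B, a light chain gene that lies beside MYL6, went the other way, at 5.95 CPM in fresh cells, 3.71 CPM in DMEM/F12 and 12.8 CPM in incubation medium. It was called higher in incubation medium, by log2 1.11 (adjusted p = 0.00219) against fresh cells and log2 1.78 (adjusted p = 0.000377) against DMEM/F12, but not in DMEM/F12 (log2 -0.68, adjusted p = 0.0564). MYL6B was called in DMEM/F12 against fresh cells without fresh replicate 2 or DMEM/F12 replicate 1, with a mean count of at least 10 required, by DESeq2 or with only the 8 libraries compared in the fit (log2 -0.89 to -0.67, adjusted p 0.0205 to 0.0497). MYL3, a light chain of slow and cardiac muscle, at 61.5, 54.5 and 68.5 CPM in fresh cells, DMEM/F12 and incubation medium spheroids, was called between the media (log2 0.33, adjusted p = 0.0416). The call of MYL3 between the media was lost without DMEM/F12 replicate 1 or 2 or incubation medium replicate 1, 2, 3 or 4, with library totals in place of TMM or with no filter on low counts (log2 0.24 to 0.34, adjusted p 0.0614 to 0.148).

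TAGLN, the marker given for these genes, encodes transgelin, an actin-bundling protein abundant in smooth muscle. TAGLN measured 281, 324, 193 and 266 CPM in fresh replicates 1 to 4, 1179, 1045, 1068 and 1187 CPM in DMEM/F12 spheroids and 396, 370.5, 225 and 529 CPM in incubation medium spheroids. DMEM/F12 spheroids stood apart from all other libraries, and incubation medium spheroids overlapped fresh cells. The rise in DMEM/F12 was 4.22-fold (log2 2.08, SE 0.21, adjusted p = 6.89e-07), and incubation medium lay below DMEM/F12 (log2 -1.56, SE 0.206, adjusted p = 0.000111). Incubation medium against fresh cells gave a log2 fold change of 0.52 (SE 0.203, adjusted p = 0.0337). The call of TAGLN in incubation medium against fresh cells was lost without fresh replicate 3 or 4 or incubation medium replicate 1 or 4 or with only the 8 libraries compared in the fit (log2 0.33 to 0.52, adjusted p 0.0535 to 0.122). CALD1 measured 55, 67.8, 59.8 and 75.7 CPM in fresh replicates 1 to 4, 359.8, 285, 369 and 377 CPM in DMEM/F12 spheroids and 199, 164, 135 and 193 CPM in incubation medium spheroids. CALD1, the gene of caldesmon, which restrains myosin on actin, rose by log2 2.43 (SE 0.142, adjusted p = 3.62e-09) in DMEM/F12 and log2 1.42 (SE 0.139, adjusted p = 4.98e-07) in incubation medium, and differed between the media (log2 -1.01, adjusted p = 0.000114), with no overlap among the 3 groups. MYL9 measured 8.53, 14.7, 11.2 and 7.64 CPM in fresh replicates 1 to 4, 74, 59, 86.9 and 62.8 CPM in DMEM/F12 spheroids and 29, 26.2, 26.1 and 23.1 CPM in incubation medium spheroids. MYL9, a regulatory light chain of smooth muscle and non-muscle myosin, showed the same order without overlap, by log2 2.74 (SE 0.18, adjusted p = 1e-08) and log2 1.31 (SE 0.184, adjusted p = 1.81e-05) against fresh cells and with a difference of log2 -1.44 (adjusted p = 2.87e-05) between the media.

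Calponins, which bind actin and calmodulin, split by gene. CNN1, the smooth muscle calponin, fell from 8.88, 5.56, 4.3 and 2.16 CPM in fresh replicates 1 to 4 to means of 0.867 CPM in DMEM/F12 and 0.847 CPM in incubation medium (log2 -2.59, SE 0.491, adjusted p = 0.000281, and log2 -2.63, SE 0.497, adjusted p = 0.000262). CNN2, found in many cell types, rose from 19.8 ± 3.19 CPM to 70.8 ± 6.58 and 77.3 ± 7.47 CPM (log2 1.84, adjusted p = 1e-08, and log2 1.97, adjusted p = 5.39e-09). The more abundant CNN3 row measured 468, 343, 361 and 305 CPM in fresh replicates 1 to 4, 645, 819, 776 and 728 CPM in DMEM/F12 spheroids and 449, 518, 509 and 512 CPM in incubation medium spheroids. That row, of the acidic calponin found outside muscle, rose by log2 1.01 (SE 0.12, adjusted p = 3.58e-06) in DMEM/F12 and log2 0.43 (SE 0.119, adjusted p = 0.00497) in incubation medium, and the media differed by log2 -0.58 (adjusted p = 0.00275). Its incubation medium libraries overlapped fresh replicate 1, and the other CNN3 row, at 8.47, 8.62 and 11.1 CPM in the 3 groups in the same order, was not called. CNN3 overlaps SLC44A3 in the RefSeq annotation.

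Markers of smooth muscle were split in level and direction, so the rows are called actin cytoskeleton genes here. ACTA2, ACTG2, CNN1, DES and SYNPO2 stayed below 9 CPM in every library, while TAGLN and SMTN, the gene of smoothelin, averaged 266 and 47.1 CPM in fresh cells, 1120 and 122 CPM in DMEM/F12 spheroids and 380.2 and 35.7 CPM in incubation medium spheroids. TAGLN and SMTN were called higher in DMEM/F12 than in fresh cells, and CNN1 and SYNPO2 were called lower in each medium (edgeR adjusted p for SYNPO2 = 1.34e-05 and 5.14e-05). Counts of ACTA2 and of ACTG2 were not whole numbers in 50% of libraries, so reads shared with other actins may be divided between rows. Such counts were not limited to these rows. They occurred in 44 of the 49 tested rows, among them ACTA1 (41.7% of libraries) and MYL3 (83.3%). ACTA2, the alpha actin of smooth muscle, measured 0.348, 2.33, 1.68 and 2.35 CPM in fresh replicates 1 to 4, 1.22, 1.39, 1.46 and 1.44 CPM in DMEM/F12 spheroids and 1.55, 1.87, 1.35 and 1.75 CPM in incubation medium spheroids. ACTG2, the gamma actin of visceral smooth muscle, averaged 1.34, 1.27 and 0.539 CPM in fresh cells, DMEM/F12 and incubation medium spheroids. ACTA2 was not called in any comparison, and its interval in DMEM/F12 against fresh cells was -1.10 to 0.56 on the log2 scale. For ACTG2 the log2 difference of -1.28 (adjusted p = 0.0527) in incubation medium was not called. ACTG2 was called in incubation medium against fresh cells without fresh replicate 1 or incubation medium replicate 1 or 4 or with the replicate block (log2 -1.60 to -1.26, adjusted p 0.0115 to 0.0474). ACTA1, the skeletal muscle actin, measured 2.44, 1.79, 2.24 and 2.35 CPM in fresh replicates 1 to 4, 1.7, 2.21, 1.99 and 1.44 CPM in DMEM/F12 spheroids and 0.597, 0.267, 0.492 and 0.269 CPM in incubation medium spheroids. It was called lower in incubation medium, with a log2 fold change of -2.37 (adjusted p = 1.45e-05) against fresh cells and log2 -2.11 (adjusted p = 0.000331) against DMEM/F12, on counts of at most 19 per library. DES, the muscle intermediate filament desmin, had at most 1 count in any library and is one of 7 untested rows that passed 3 counts in no library. MYL2, a muscle light chain, was at 0 in all 12 libraries, which allows up to 3 counts per library, 0.348 to 0.588 CPM, by counting error alone. SYNPO2, an actin-bundling protein of muscle, had 12, 16, 38 and 20 counts in the fresh libraries, at most 1 in DMEM/F12 spheroids and 3, 4, 0 and 0 in incubation medium spheroids, at least 10.9-fold lower in DMEM/F12 than in fresh cells (against 3 counts per library). MYH11, LMOD1 and MYOCD are on no row under these symbols and are not analysed here.

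**Figure D3:**
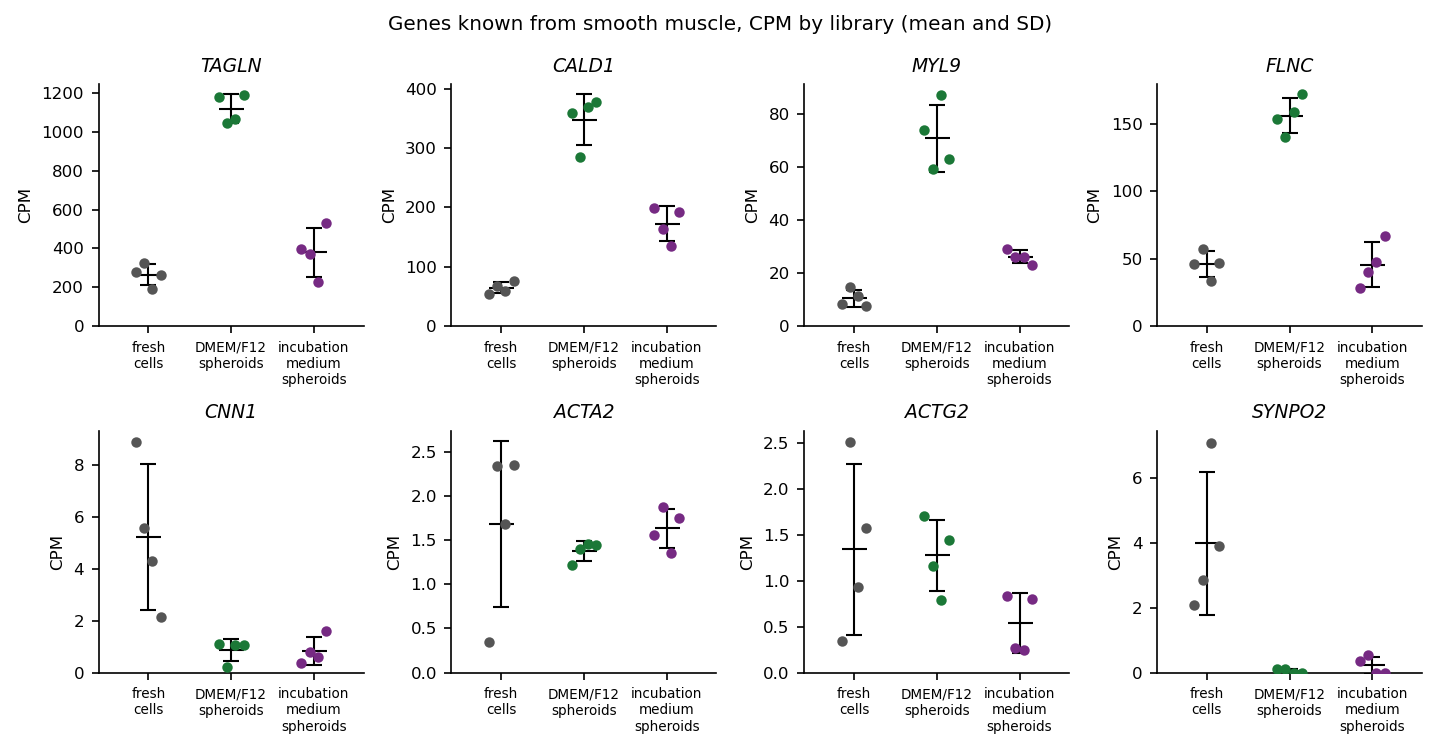
CPM in each library (vertical axes, starting at 0 and scaled per gene) of 8 genes known from smooth muscle, by group, with bars for the mean and SD of 4 libraries. TAGLN, CALD1, MYL9 and FLNC are highest in DMEM/F12 spheroids, while CNN1, ACTA2, ACTG2 and SYNPO2 stay below 9 CPM in every library.

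Markers of other cell types moved with the groups, and their part in these results was not tested. Of 10 smooth muscle markers 7 had a row, and without TAGLN they summed to 52.5 to 65.4 CPM in fresh cells, 82.4 to 164 CPM in DMEM/F12 spheroids and 31.5 to 42.7 CPM in incubation medium spheroids. Most of that sum was SMTN, which rose in DMEM/F12 by log2 1.37 (adjusted p = 8.3e-06) and was lower in incubation medium than in DMEM/F12 (log2 -1.77, adjusted p = 1.44e-05). Against fresh cells SMTN in incubation medium was not called (log2 -0.40, adjusted p = 0.063). SMTN was called in incubation medium against fresh cells with library totals in place of TMM, with a mean count of at least 10 required, with the replicate block or with only the 8 libraries compared in the fit (log2 -0.43 to -0.41, adjusted p 0.00727 to 0.0483). Fibroblast markers (6 of 8 with a row) summed to 2330 to 2730 CPM in fresh cells, 161 to 250 CPM in DMEM/F12 spheroids and 87.9 to 150 CPM in incubation medium spheroids. The sum ran in the opposite order to TAGLN in the comparisons with fresh cells. Most of the fresh sum was MGP and FBLN1, at means of 1612 and 854.8 CPM. In DMEM/F12 COL1A1 (log2 -0.50, adjusted p = 0.32) and PDGFRA (log2 0.67, adjusted p = 0.129) were not called, and the other fibroblast markers were called lower. In incubation medium all 6 were called lower than in fresh cells. Pericyte markers (3 of 4) summed to 46.8 to 68.6, 22.6 to 32.5 and 12.1 to 18.8 CPM in fresh cells, DMEM/F12 and incubation medium spheroids. RGS5 and CSPG4 had no more than 2 counts in any library. Endothelial markers (4 of 5) summed to 39.7 to 55.8, 136 to 251 and 91.1 to 148 CPM, with VWF at no more than 1 count. CDH5 and KDR were called higher in each medium against fresh cells (CDH5 log2 3.24 and 1.91, adjusted p = 8.4e-07 and 0.00014, and KDR log2 1.83 and 1.53, adjusted p = 0.000365 and 0.00149), and PECAM1 was called lower (log2 -0.93 and -0.91, adjusted p = 2.01e-05 and 2.48e-05). Leukocyte markers (3 of 5) summed to 1860 to 2170, 1510 to 1770 and 1960 to 2210 CPM, nearly all CD74, which was called lower in DMEM/F12 (log2 -0.29, adjusted p = 0.00424) and not called in incubation medium (adjusted p = 0.393) against fresh cells. PTPRC, the leukocyte antigen CD45, was called lower in each medium (log2 -1.46 and -2.52, adjusted p = 0.00151 and 3.19e-05), and CD3E, a T cell receptor subunit, was not tested, at means of 1.45, 0.149 and 0.134 CPM. Epithelial markers (5 of 6) summed to 3730 to 4370, 5960 to 7390 and 4140 to 6150 CPM, but did not share one direction. CDH1, KRT18 and each KRT8 row were called higher in each medium against fresh cells. The less abundant KRT8 row rests on few counts, with 0, 0, 2 and 1 in the fresh libraries. In DMEM/F12 spheroids that row had 23, 2, 6 and 19 counts and overlapped fresh cells (edgeR adjusted p = 0.0392). EPCAM was called lower in DMEM/F12 (log2 -0.52, adjusted p = 0.00741) and not called in incubation medium (adjusted p = 0.0625). CLDN4 was called higher in DMEM/F12 (log2 0.72, adjusted p = 0.000274) and lower in incubation medium (log2 -0.71, adjusted p = 0.000285). Markers of multiciliated cells (2 of 6) summed to 466 to 498, 57.8 to 139 and 55.6 to 87.3 CPM.

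CCN1 and CCN2, secreted matrix-associated proteins, moved against the actin genes. CCN1 measured 4901, 4088, 2611 and 2786 CPM in fresh replicates 1 to 4, 526, 438, 492 and 485 CPM in DMEM/F12 spheroids and 289.9, 270.2, 237 and 268 CPM in incubation medium spheroids. CCN2 measured 6991, 6295, 3810 and 3060 CPM in fresh replicates 1 to 4, 1746, 807, 774 and 1091 CPM in DMEM/F12 spheroids and 1060, 543, 785 and 633 CPM in incubation medium spheroids. Every fresh library lay above every spheroid library for each gene. CCN1 fell 7.41-fold in DMEM/F12 (log2 -2.89, SE 0.175, adjusted p = 4.87e-09) and 13.5-fold in incubation medium (log2 -3.76, SE 0.182, adjusted p = 6.76e-10), and was lower in incubation medium than in DMEM/F12 (log2 -0.87, adjusted p = 0.00169). CCN2 fell 4.56-fold and 6.67-fold (log2 -2.19, SE 0.312, adjusted p = 2.07e-05, and log2 -2.74, SE 0.319, adjusted p = 2.77e-06), and its difference between the media (log2 -0.55, adjusted p = 0.207) was not called. Fresh replicates 1 and 2 were above replicates 3 and 4 for CCN1 and CCN2. ANKRD1, another known target of this kind, had at most 9 counts in any library and was not tested.

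SRF and YAP/TEAD factors and targets outside the name pattern, 21 tested of 29 listed, had 9 called higher (42.9%, against 35.1% of all tested genes) and 7 lower (33.3%, against 35.7%) in DMEM/F12 spheroids. In incubation medium 8 were higher and 8 lower (38.1% each, against 35.8% each), shares near those of all genes. Between the media 2 were higher (9.52%, against 12.7%) and 8 lower (38.1%, against 12.3%). Their median log2 fold changes were -0.08, -0.17 and -0.34. EDN1, the peptide endothelin-1, was at 416, 400.3, 224 and 198 CPM in fresh replicates 1 to 4 and at means of 31.3 and 22.5 CPM in DMEM/F12 and incubation medium spheroids, lower in each medium (log2 -3.30, adjusted p = 1.45e-07, and log2 -3.79, adjusted p = 5.12e-08). F3, the gene of tissue factor, rose by log2 1.42 (adjusted p = 0.000279) and log2 1.16 (adjusted p = 0.00139). THBS1, thrombospondin-1, was called lower in incubation medium against fresh cells (log2 -0.91, adjusted p = 0.0029, and log2 -0.57, adjusted p = 0.00751, without fresh replicate 1) and gave log2 -0.65 (adjusted p = 0.0558) between the media. THBS1 was called between the media without DMEM/F12 replicate 3, with library totals in place of TMM, with no filter on low counts, by DESeq2, with the replicate block or with only the 8 libraries compared in the fit (log2 -0.75 to -0.64, adjusted p 0.000927 to 0.0472). EDN1 was called between the media with the replicate block (log2 -0.48, adjusted p = 0.0397). FHL2, a LIM protein that binds integrins, was chosen after its values were seen: it went from 3.51 ± 1.79 CPM in fresh cells to 218 ± 30.8 CPM in DMEM/F12 and 123 ± 9.82 CPM in incubation medium (log2 5.96, adjusted p = 5.49e-11, and log2 5.13, adjusted p = 1.84e-10). SRF itself, at 5.04, 5.48 and 6.07 CPM, and the kinase LATS1 were not called in any comparison.

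**Figure D4:**
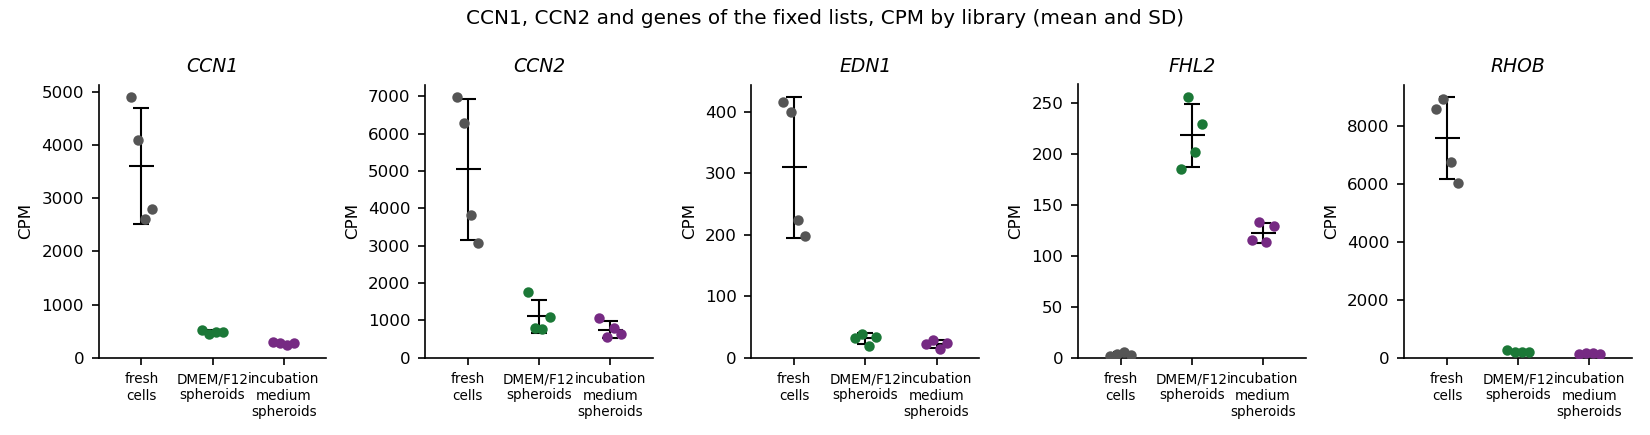
CPM in each library (vertical axes, starting at 0) of CCN1, CCN2, EDN1, FHL2 and RHOB in the 3 groups, with bars for the mean and SD of 4 libraries. CCN1, CCN2, EDN1 and RHOB are highest in the 4 fresh libraries, and FHL2 is lowest there.

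Other actin regulators, 50 tested of 64 listed, had 40 called higher (80%, against 35.1% of all tested genes) and 6 lower (12%, against 35.7%) in DMEM/F12 spheroids. In incubation medium 34 were higher (68%) and 6 lower (12%, against 35.8% each way), and between the media 1 was higher (2%, against 12.7%) and 23 lower (46%, against 12.3%). Their medians were 0.93, 0.54 and -0.28 on the log2 scale. The small GTPases RAC1, CDC42 and RHOA rose by log2 1.64 (adjusted p = 1.52e-08), log2 1.09 (adjusted p = 6.9e-08) and log2 1.13 (adjusted p = 1.97e-06) in DMEM/F12 and by 1.29, 0.84 and 1.16 on the log2 scale in incubation medium. RHOB, a small GTPase whose gene is known to respond quickly to stress and growth factors, was at 8574, 8934, 6741 and 6030 CPM in fresh replicates 1 to 4 and at means of 219.7 and 146 CPM in DMEM/F12 and incubation medium spheroids, 34.5-fold and 51.7-fold lower (log2 -5.11, SE 0.14, adjusted p = 3.47e-12, and log2 -5.69, SE 0.144, adjusted p = 2.07e-12). Fresh replicates 1 and 2 were again above replicates 3 and 4 in RHOB, as in EDN1. CAPZB, a capping protein subunit, and PXN, the adhesion adaptor paxillin, were not called against fresh cells (log2 0.22, adjusted p = 0.0586, and log2 0.15, adjusted p = 0.113, in DMEM/F12). CAPZB was called in DMEM/F12 against fresh cells without fresh replicate 4 or DMEM/F12 replicate 1, with library totals in place of TMM, with no filter on low counts or with the replicate block (log2 0.22 to 0.29, adjusted p 0.0162 to 0.0351). PXN was called in DMEM/F12 against fresh cells without fresh replicate 2 or with library totals in place of TMM (log2 0.22, adjusted p 0.0245 to 0.0266). PXN was called in incubation medium against fresh cells without fresh replicate 2 (log2 0.23, adjusted p = 0.0191). MSN, moesin, which ties actin to the membrane and was chosen after its values were seen, rose by log2 3.22 (adjusted p = 2.04e-10) in DMEM/F12 and log2 2.29 (adjusted p = 3.89e-09) in incubation medium and was lower in the latter than in the former (log2 -0.93, adjusted p = 0.000109).

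The list of further smooth muscle genes held 20 symbols, 4 of them also among the cell type markers, and 9 were tested. It had 4 called higher and 4 lower in DMEM/F12 spheroids (44.4% each, against 35.1 and 35.7% of all tested genes). In incubation medium 2 were higher (22.2%) and 5 lower (55.6%, against 35.8% each way), and between the media 1 was higher (11.1%, against 12.7%) and 6 lower (66.7%, against 12.3%). CRYAB, a small heat shock protein abundant in muscle, fell from 3520 ± 837 CPM in fresh cells to 335 ± 59.6 and 168 ± 23.6 CPM (log2 -3.39, adjusted p = 1.25e-09, and log2 -4.39, adjusted p = 1.82e-10). HSPB8, a second small heat shock protein, fell in each medium (log2 -0.95, adjusted p = 0.00315, and log2 -2.24, adjusted p = 2.37e-06). CSRP1, a LIM protein of smooth muscle and other cells, rose in DMEM/F12 by log2 0.67 (adjusted p = 0.000285) and was lower in incubation medium than in DMEM/F12 (log2 -0.67, adjusted p = 0.0016). RBPMS, an RNA-binding protein that acts on muscle splicing, rose by log2 1.29 (adjusted p = 4.4e-09) and log2 1.30 (adjusted p = 4.16e-09). NEXN, an actin-binding protein of muscle chosen after its values were seen, rose from 0.858 ± 0.477 CPM to 27.2 ± 9.96 and 8.21 ± 2.48 CPM (log2 4.93, adjusted p = 8.24e-08, and log2 3.21, adjusted p = 1.5e-05), and was lower in incubation medium than in DMEM/F12 (log2 -1.73, adjusted p = 0.000502).

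The share that one gene took of the counts of a pair of related genes was followed across groups as a description, with no test, since 3′ counts are not set per length and the pairs came from rows already described. PFN2 was 44.5% ± 5.69 of profilin counts in fresh cells, 4.91% ± 0.294 in spheroids of DMEM/F12 and 6.77% ± 0.825 in those of incubation medium. Its ranges were separate in all 3 groups. TMSB10 was 10.2% ± 1.07 of TMSB10 and TMSB4X counts in fresh cells, then 36.9% ± 1.46 and 38.3% ± 2.8 in DMEM/F12 and incubation medium, with the spheroid groups overlapping. CFL2 was 9.83% ± 2.72 of cofilin counts in fresh cells, then 26.2% ± 6.45 and 24.9% ± 5.32. MYH10 was 14.2% ± 1.59 of MYH10 and MYH9 counts in fresh cells, then 6.78% ± 0.415 and 5.46% ± 0.212, without overlap among the groups. In the spheroid groups PFN1 and MYH9 took more of the counts of their pairs than in fresh cells. ACTR3B was 26.4% ± 6.15 of ARP3 counts in fresh cells, then 2.96% ± 0.679 and 2.95% ± 0.69. TPM1 was 26.2% ± 6.74 of TPM1 and TPM4 counts in fresh cells, then 12.5% ± 1.89 and 9.12% ± 0.395. ARPC1B, by contrast, took 41.1% ± 2.77, 40.1% ± 4.39 and 37.6% ± 3.74 of ARPC1A and ARPC1B counts, and its ranges overlapped in all 3 groups.

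**Figure D5:**
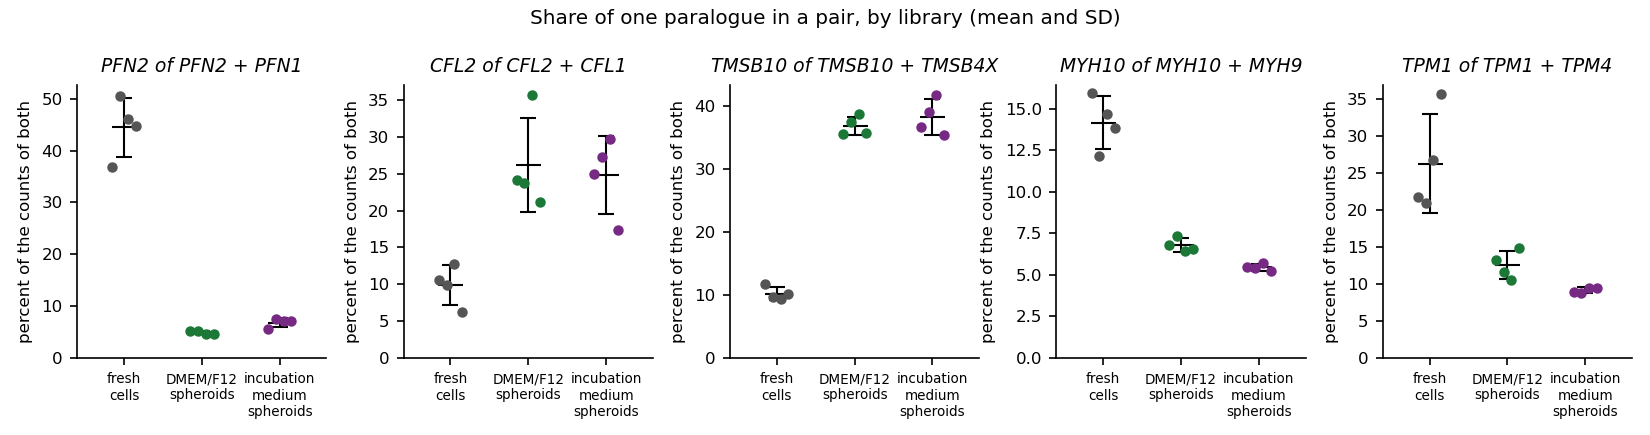
Share in percent (vertical axes, starting at 0) of one gene in the summed counts of a pair of related genes in each library, by group, with bars for the mean and SD of 4 libraries. PFN2 lies between 36.8 and 50.5% in fresh cells and between 4.64 and 7.41% in spheroids, and TMSB10 lies between 9.3 and 11.8% in fresh cells and above 35% in spheroids.

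Spread between libraries was moderate for most members. The median coefficient of variation over the tested members was 13% among fresh libraries, 10.4% among DMEM/F12 and 9.67% among incubation medium spheroids, against 14, 13 and 14.1% over all tested genes. The widest was 69.1% for ACTG2 in fresh cells, and CNN1 was the widest among DMEM/F12 (48.8%) and incubation medium (64%) spheroids. The 12 untested rows were the muscle genes ACTN2, ACTC1, MYH4, MYL1, MYL2, MYL4, MYL11 and DES, the neuronal transgelin TAGLN3, the light chains MYL5 and MYL10, and ANKRD1. No row carried the symbols ACTN1, ACTN3, TAGLN2, VIM, CAPG, GSN, ARPC5L or MYL12B, which are not analysed here, so alpha-actinins are represented by ACTN4 alone and intermediate filaments by DES alone.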

How the data were processed

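Bulk 3′ mRNA-seq libraries of porcine oviduct cells, 4 per group in 3 groups, were read from one deposited table holding counts and CPM for 30461 gene rows and 92 spike-in rows. The spike-in rows were left out of the tests, but not of the library totals behind the members' share of counts. The deposited expected counts need not be whole (19.1 to 20.5% of the nonzero values per library were not) and were rounded before testing, where whole counts had been planned for. The deposited CPM equal counts over the library's total of gene counts to within 5e-06. The CPM printed here were computed anew from the counts with TMM scaling and differ from the deposited CPM. Per the submitters' processing notes the tools were fastp 0.24.0, STAR 2.7.11, SAMtools 1.22.1 and featureCounts from Subread 2.1.1. Their roles, the genome build and the strand setting are not given in the sources used here, and no member identifier matched the RefSeq table of Sscrofa11.1, so neighbours were matched by symbol (55 of 59) and neither coordinates nor sequences are given.

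Genes were filtered by filterByExpr by group, scaled by TMM and tested with edgeR 4.0.16 (glmQLFit and glmQLFTest, R 4.3.3) over all 12 libraries with 1 mean per group, and p-values were adjusted by Benjamini-Hochberg over 14070 genes. The biological coefficient of variation was 0.146. The procedure was also run on simulated data in which few genes changed and libraries were independent. That run does not cover data such as these, where most genes were called against fresh cells and same-numbered libraries were correlated. Same-numbered libraries of different groups deviated together (r from 0.196 to 0.516 in 12 of 12 pairs). Each DMEM/F12 library correlated best with its own number among fresh libraries. So did each incubation medium library, among fresh and among DMEM/F12 libraries. The replicate number was therefore fitted as a block as an alternative. The other alternatives were DESeq2 1.42.0, DESeq2 size factors, library totals, other filters on low counts, fewer libraries in the fit, only genes with whole counts, and leaving out each library.

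The members and gene lists were chosen with earlier results of these data known. Values in every library are given for TAGLN, for the 2 most abundant members of each role, for the largest called change of each role and for the 4 largest between the media, with a mean of at least 20 CPM for the changes. List genes were named for abundance, up to 4 called and 2 not called per list. Some genes that this rule names are not reported here. Shares of gene pairs were left without a test. Floors of 3 counts and intervals on zeros cover counting error only. No libraries within a group matched to within counting noise (ratio of chi-square to degrees of freedom 5.61 to 16.1).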

Additional observations from a re-analysis of the deposited data

Results flagged for a closer look

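In 11 of 153 groups of 4 libraries examined over the tested members and the shares of counts, 1 library stood farther from the other 3 than Dixon's critical ratio allows. Chance gives about 1 in 20 such groups, so most of these may be chance. No explanation was tested.

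Incubation medium replicate 1 stood apart in 4 genes: PFN2 was at 107 CPM against 122 to 123 in the other replicates, MYH10 at 81 against 64.7 to 67.3, ACTR10 at 121 against 98.2 to 102, and the more abundant CNN3 row at 449 against 509 to 518. Incubation medium replicate 4 did so in ARPC5, at 204 CPM against 236 to 241, and in TMSB4X, at 7780 CPM against 6050 to 6340. Incubation medium replicate 3 had 73.4 CPM of MYL3 against 66.2 to 67.3. Among DMEM/F12 spheroids, replicate 2 had 0.232 CPM of CNN1 against 1.06 to 1.09, a level of 2 counts, and replicate 3 had 2080 CPM of TPM4 against 1600 to 1650. In fresh cells, replicate 1 had 107 CPM of ARPC5 against 94.9 to 96.9, and replicate 3 had 6.17 CPM of TPM2 against 8.04 to 8.35.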

How the results depend on the processing

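Of 188 results for single genes, 154 kept their direction and their side of the threshold under every alternative run, and of 2836 alternative values 49 lost a call, 64 gained one and 10 changed sign. Uncalled results with the smallest fold changes, apart from those of FLNC and ACTA2, were not followed. Changes of sign or call among them are therefore not in these counts. The rows called lower in DMEM/F12 spheroids against fresh cells numbered 5, and 9 where a mean count of at least 10 was required, which added MYL6B, ACTR6 and both ACTR8 rows; leaving out each library in turn gave 5 to 9, with 9 without DMEM/F12 replicate 1. With only genes of whole counts, 5 members were tested: 4 were called higher and 1 lower in DMEM/F12, 4 higher and 1 lower in incubation medium, and 0 higher and 1 lower between the media, the smaller numbers following from the fewer genes. With the replicate block 32 rows were higher and 5 lower in DMEM/F12, 30 higher and 8 lower in incubation medium, and 3 higher and 21 lower between the media. Among the results followed, the block changed 11 calls of single genes, given above for the genes named there, and no other. Of the results followed, values of genes that were not called changed sign in 3 cases and the cause was not tested. FLNC and ACTA2 in incubation medium against fresh cells were log2 0.0496 and 0.0295 with no filter on low counts. Leaving out each library gave -0.235 to 0.182 for FLNC and -0.375 to 0.182 for ACTA2. THBS1 in DMEM/F12 against fresh cells ran from -0.393 to 0.0775 when each library was left out. Depth limits the muscle genes most: 1 count was worth 0.116 to 0.196 CPM, so levels of ACTA2, ACTG2, ACTA1 and CNN1 rest on few counts.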
